A study of Mus musculus with 24 samples.

Results

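The 7 genes described here are the T-box transcription factors Tbx1, Tbx2, Tbx3, Tbx4, Tbx15, Tbx18 and Tbx20. They were chosen by symbol, as T-box genes other than Tbx5, which the reprogramming cocktails deliver. They are 7 of the 47967 genes in the count table, and all 7 are among the 17576 genes that passed the filter on low counts and were tested. The study asked how cardiac reprogramming works, the conversion of fibroblasts towards heart muscle by delivered factors. It sequenced RNA of MEFs, the connective-tissue cells of mouse embryos (here of strain C57BL/6 at embryonic day 13.5 to 14.5), with or without retroviral cocktails. In such names G, M and T are usually Gata4, Mef2c and Tbx5 (GMT), H is Hand2 (GHMT) and A is the kinase Akt1 (AGHMT). The control was mock treatment, and which virus it received, if any, is not stated in the labels. Cells were sampled at 2 and at 7 days after transduction, giving 8 groups (mock, GMT, GHMT and AGHMT at each day) of 3 libraries, 24 in all. All groups share the strain and the fibroblast source. Per the protocols in the labels, infected cells were moved to an induction medium.

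T-box factors share a DNA-binding domain, the T-box, which recognises a short sequence around GGTGTG, and they compete for such sites as activators or repressors. In the embryonic heart, Tbx5 and Tbx20 act with GATA, MEF2 and homeodomain factors in the working muscle of the chambers. Tbx2 and Tbx3 repress the chamber programme where the atrioventricular canal and the conduction system form, Tbx18 marks the epicardium and the muscle of the sinus horns, and Tbx1 acts in the pharyngeal mesoderm that supplies the outflow tract. Tbx4 and Tbx15 are best known outside the heart, Tbx4 in hindlimb and lung mesenchyme and Tbx15 in limb, skeletal and dermal mesenchyme.

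Library totals ran from 29345957 to 37495178 counts, and 22720 to 24422 genes were detected per library. All 10 fibroblast markers checked were present in every group. Tbx5 matched the labels, with 11.3 ± 0.625 CPM (read counts scaled to a common library size with TMM factors) in day 2 mock and 2637 ± 222 to 3409 ± 94.8 CPM in the day 2 cocktails (mean ± SD, n = 3 here and throughout). At day 7 it lay at 10.99 ± 0.607 CPM in mock, 2327 ± 64.4 in GMT, 2746 ± 62.0 in GHMT and 1730.2 ± 25.9 in AGHMT. The deposited counts do not separate viral from endogenous Tbx5. AGHMT day 2 replicate 3 stood apart from the other libraries of its group, with 38.9 and 41.7 chi-square units per degree of freedom against them. Every other pair of replicates lay between 1.49 and 10.5. The labels do not describe the replicates as separate cultures. The p-values therefore rest on the spread among these libraries alone, and that spread may be technical. In bulk RNA, fewer cells of a type and less RNA per cell cannot be told apart.

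Because Tbx5 was present at levels far above the 7 genes, its annotated transcripts (GENCODE M21) were compared with theirs for stretches that a read could share. The longest exact runs shared with Tbx5 were 23 bases for Tbx4, 21 for Tbx1, 20 for Tbx2 and Tbx15, 19 for Tbx3, 17 for Tbx18 and 16 for Tbx20. None of the 7 shared a run of 30 bases with Tbx5. The longest run between any pair of the 7 was 32 bases, between Tbx4 and Tbx20. The read length is not given in the sources used here.

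The 250 bases before the transcription start are shown for Tbx20 and Tbx18, the pair with the closest profiles across the libraries, both on the minus strand of chromosome 9 and read 5′ to 3′ on the gene's own strand (RefSeq, GRCm38.p6). The RefSeq table held a promoter for 4 of the 7 genes (Tbx1, Tbx4, Tbx18 and Tbx20). Motifs were searched on both strands and set against 32851 promoter windows of the same length. The T-box core GGTGTG was in 16.3% of those windows. The GATA motif, searched as AGATAA, was in 9.99% of them. The E-box of the type bound by HAND factors, searched as CATCTG, was in 14.4% of them. The MEF2 motif was in 2.92% of them. The Tbx20 window, chr9:24774304-24774553, held none of these motifs. The Tbx18 window, chr9:87731261-87731510, held 1 match, the E-box on the opposite strand, shown in capitals. It lies inside an exon of D030062O11Rik, a gene model of the opposite strand.
Tbx20: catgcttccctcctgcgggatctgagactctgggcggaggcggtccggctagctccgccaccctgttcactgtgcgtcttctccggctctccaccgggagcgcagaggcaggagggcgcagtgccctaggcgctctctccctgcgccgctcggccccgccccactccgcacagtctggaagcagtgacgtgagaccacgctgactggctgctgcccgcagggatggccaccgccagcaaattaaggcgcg
Tbx18: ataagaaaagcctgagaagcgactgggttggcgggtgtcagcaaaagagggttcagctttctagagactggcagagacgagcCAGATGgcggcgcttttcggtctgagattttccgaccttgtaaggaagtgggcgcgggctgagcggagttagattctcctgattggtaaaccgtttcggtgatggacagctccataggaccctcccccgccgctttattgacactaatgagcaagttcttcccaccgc
Tbx1 has 2 windows in the table, both without a match, and the Tbx4 window held 1 E-box. A match is a description of letters only.

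Tbx20 rose in all 6 cocktail groups against the mock of the same day, by 21.9-fold to 406-fold. Tbx2 rose in all 6 by 4.70-fold to 15.5-fold, and Tbx18 rose in all 6 by 1.70-fold to 3.93-fold. Tbx4 and Tbx1 fell in all 6. Tbx15 fell in all 3 cocktails at day 7 and Tbx3 fell in all 3 at day 2, and at the other day the direction of either gene depended on the cocktail.

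**Figure D1:**
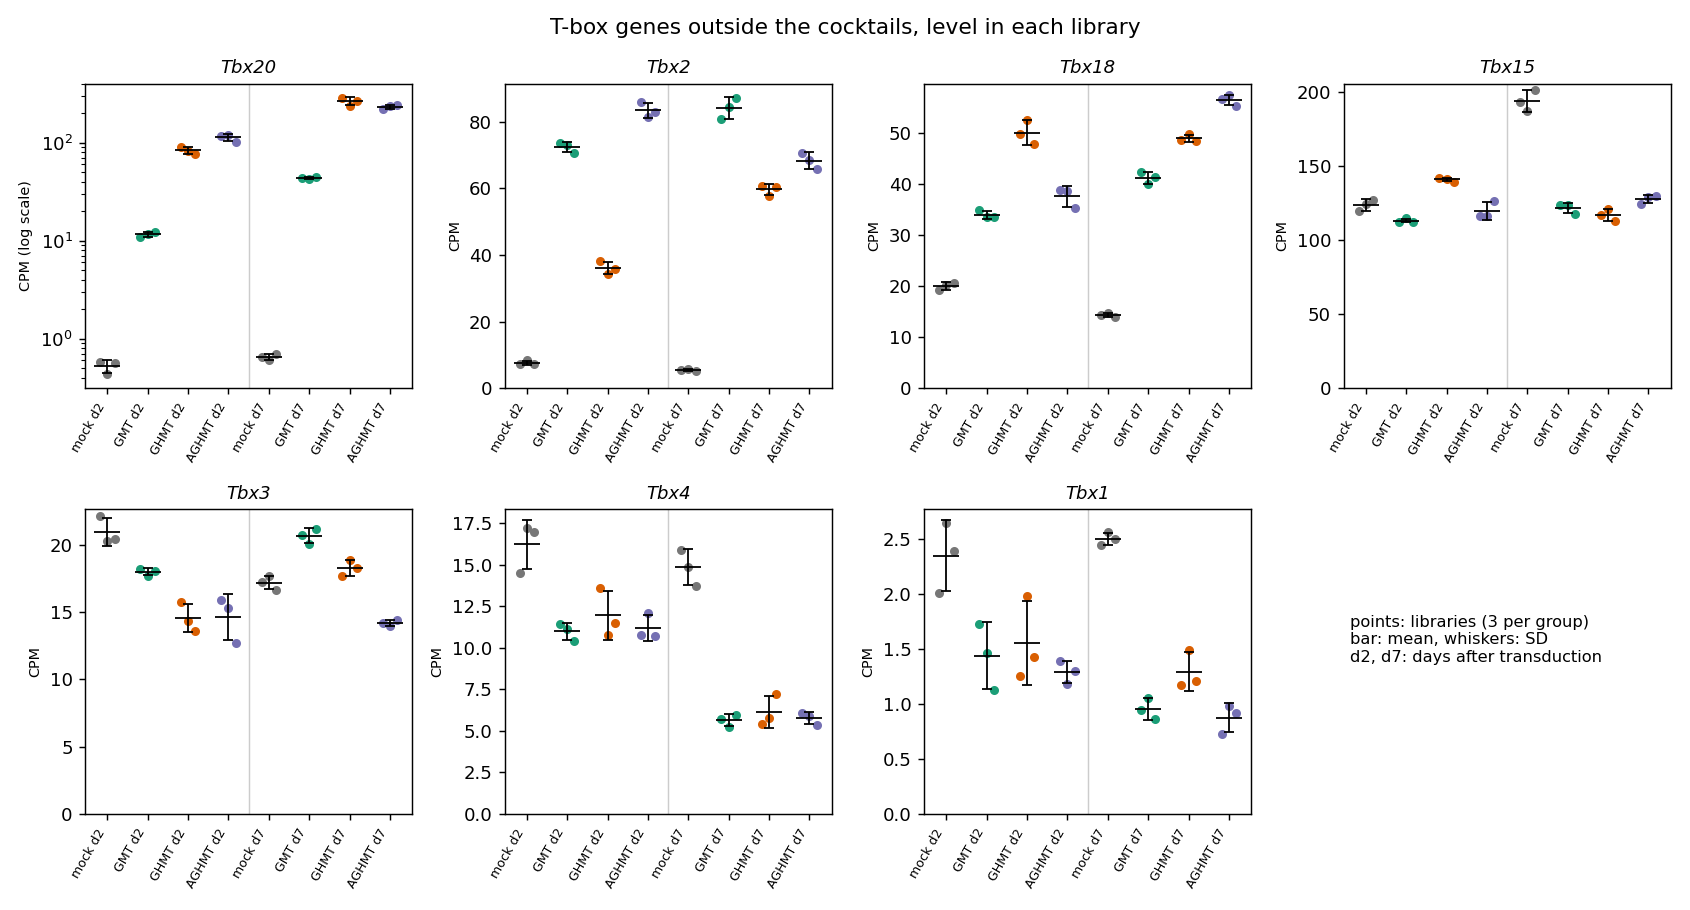
Levels of the 7 genes in each of the 24 libraries, in CPM after TMM scaling, with a log axis for Tbx20 only. Points are libraries, bars the mean and whiskers the SD of 3 libraries, and groups are ordered by day. Tbx20, Tbx2 and Tbx18 lie above mock in every cocktail library, and Tbx4 and Tbx1 lie below it.

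Changes are given as log2 fold changes ± SE, with p-values from edgeR's quasi-likelihood F test, adjusted by Benjamini-Hochberg over all genes tested. A gene was called at an adjusted p under 0.05. The SE comes from the spread of log2 CPM among the 3 libraries of each group, not from the edgeR fit. With few reads, 3 libraries can lie closer together than read sampling would usually leave them, and the SE is then too small. The 3 cocktails of a day share their mock libraries. Most genes were called in these comparisons, so each count of the 7 is set beside the share of all genes. In GMT against mock at day 2, 3 of the 7 genes were higher and 4 lower, where 33.9% of all tested genes were higher and 33.1% lower (67.1% called in all). In GHMT at day 2 the counts were 4 and 3, against 34.9% and 33.3% of all genes (68.2%). In AGHMT at day 2, 3 were higher, 3 lower and 1 not called, against 38.0% and 37.4% (75.4%). At day 7 GMT had 4 higher and 3 lower, against 37.1% and 36.0% (73.0%). GHMT at day 7 had 3 higher, 3 lower and 1 not called, against 36.3% and 35.6% (72.0%). AGHMT at day 7 had 3 higher and 4 lower, against 38.6% and 38.1% (76.8%). The median log2 fold change of the 7 ran from -0.28 to 0.27 over these 6 comparisons, and that of all genes from -0.00 to 0.01. The 7 genes had no common direction in any of these comparisons.

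Tbx20 (ENSMUSG00000031965, chr9:24718138-24774303, minus strand, GRCm38), a factor of chamber muscle and endocardium, was nearly silent in mock. Its 3 mock libraries at day 2 held 0.583, 0.433 and 0.568 CPM, and those at day 7 held 0.650, 0.603 and 0.697 CPM. GMT libraries had 10.96, 11.6 and 12.3 CPM at day 2 and 43.3, 43.1 and 44.2 CPM at day 7. GHMT libraries had 90.5, 83.1 and 76.7 CPM at day 2 and 288, 239.6 and 268 CPM at day 7. Every GHMT library thus lay above every GMT library of either day. AGHMT libraries had 117, 120.2 and 103 CPM at day 2 and 222, 234 and 240.2 CPM at day 7. The order of the group means was GHMT day 7, AGHMT day 7, AGHMT day 2, GHMT day 2, GMT day 7, GMT day 2, mock day 7 and mock day 2. Only the top pair of neighbours overlapped.

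Against mock, Tbx20 was higher by 4.46 ± 0.13 in GMT (adjusted p = 6.41e-19), 7.30 ± 0.14 in GHMT (6.56e-25) and 7.74 ± 0.14 in AGHMT (1.09e-25) at day 2. At day 7 it was higher by 6.06 ± 0.06 in GMT (2.06e-23), 8.67 ± 0.09 in GHMT (5.88e-27) and 8.47 ± 0.06 in AGHMT (6.78e-27). The mock denominator rests on 16 to 22 reads per library, so the SEs of these differences from mock may be too small. Between cocktails, Tbx20 was 7.18-fold higher in GHMT than in GMT at day 2 (log2 2.84 ± 0.08, adjusted p = 5.86e-20) and 6.09-fold at day 7 (2.61 ± 0.08, 5.05e-20). AGHMT exceeded GHMT at day 2 by 0.44 ± 0.10 (3.19e-06). At day 7 AGHMT was called lower than GHMT by -0.19 ± 0.08 (0.0139), but their libraries overlapped. This call was lost without AGHMT replicate 1 (-0.16, adjusted p = 0.0709) and without GHMT replicate 1 (-0.13, adjusted p = 0.116).

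Tbx2 (ENSMUSG00000000093, chr11:85832551-85841948, plus strand), a repressor of chamber genes in the atrioventricular canal, also rose, with another order of the cocktails. Mock libraries held 7.32, 8.37 and 7.30 CPM at day 2 and 5.50, 5.70 and 5.10 CPM at day 7. GMT libraries held 73.6, 73.2 and 70.7 CPM at day 2 and 80.9, 84.4 and 87.3 CPM at day 7. GHMT libraries were lower than those of GMT at both days, with 38.1, 34.3 and 35.8 CPM at day 2 and 60.9, 57.8 and 60.6 CPM at day 7. AGHMT libraries held 86.0, 81.3 and 83.0 CPM at day 2 and 70.8, 68.5 and 65.9 CPM at day 7. All AGHMT libraries lay above the GHMT libraries of their day, and the AGHMT group was the only cocktail whose level was lower at day 7 than at day 2. In the order GMT day 7, AGHMT day 2, GMT day 2, AGHMT day 7, GHMT day 7, GHMT day 2, mock day 2 and mock day 7, the first and second groups overlapped, as did the third and the fourth.

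Tbx2 was higher than mock at day 2 by 3.24 ± 0.07 in GMT (adjusted p = 4.04e-24), 2.23 ± 0.08 in GHMT (8.00e-21) and 3.44 ± 0.07 in AGHMT (6.28e-25). The day 7 differences were 3.95 ± 0.06 in GMT (1.30e-25), 3.46 ± 0.05 in GHMT (1.79e-24) and 3.65 ± 0.06 in AGHMT (4.93e-25). The differences between cocktails went the opposite way to those of Tbx20 when GHMT was set against GMT. Tbx2 was lower in GHMT by -1.01 ± 0.05 at day 2 (9.41e-15) and by -0.49 ± 0.04 at day 7 (4.43e-09). Setting AGHMT against GHMT gave higher Tbx2 by 1.21 ± 0.05 at day 2 (3.47e-16) and 0.20 ± 0.04 at day 7 (0.00148).

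The gene 2610027K06Rik (chr11:85791661-85832223, minus strand) is transcribed away from Tbx2 and its annotation ends 327 bases before it. Within a day its differences from mock, of GHMT from GMT and of AGHMT from GHMT had the direction of those of Tbx2, at far fewer reads. The mock libraries held 1 to 7 reads each, a mean of 0.191 ± 0.0173 CPM at day 2 and 0.154 ± 0.108 CPM at day 7. At day 2 it reached 2.29 ± 0.192 CPM in GMT, 1.35 ± 0.251 in GHMT and 3.54 ± 0.450 in AGHMT, and at day 7 it reached 3.26 ± 0.205, 2.33 ± 0.169 and 3.51 ± 0.0558 CPM. All 6 cocktail groups were called higher than mock, with adjusted p from 9.76e-15 to 2.15e-09. As for Tbx2, it was lower in GHMT than in GMT (day 2 -0.76 ± 0.17, adjusted p = 5.31e-04, and day 7 -0.48 ± 0.08, 0.0074) and higher in AGHMT than in GHMT (1.396 ± 0.19, 4.26e-08, and 0.58 ± 0.06, 0.00107). Between days the 2 genes parted in AGHMT, where Tbx2 went from 83.5 to 68.4 CPM and 2610027K06Rik hardly moved. Its AGHMT mean at day 7 was above that of GMT, whereas that of Tbx2 was below. In mock it was not called between days (adjusted p = 0.594). Nor was the day difference of any cocktail effect called (0.155 in GMT, 0.06 in GHMT and 0.643 in AGHMT). The strand setting of the read counting is not given in the sources used here, and the annotated genes do not overlap.

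**Figure D2:**
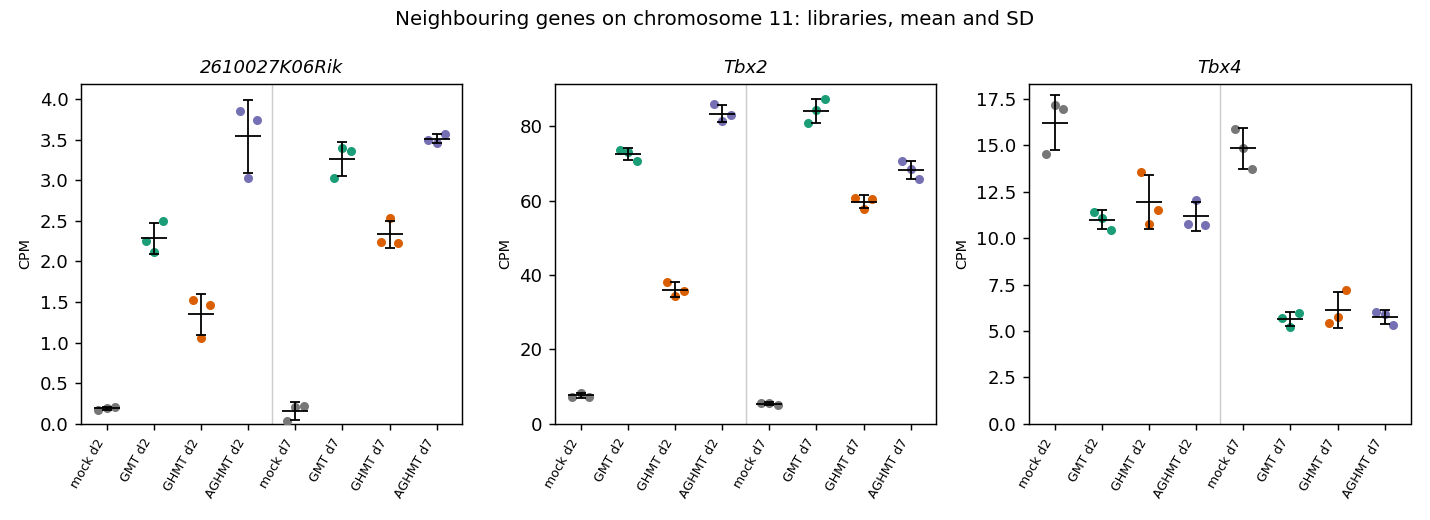
Levels in CPM of 2610027K06Rik, Tbx2 and Tbx4, 3 neighbours on chromosome 11, in each library (points, with mean and SD of 3 libraries). 2610027K06Rik and Tbx2 are lower in GHMT than in GMT and AGHMT at both days, and Tbx4 is below mock in every cocktail group.

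Tbx3 (ENSMUSG00000018604, chr5:119670669-119684724, plus strand), the closest relative of Tbx2 and a factor of the sinus node and conduction system, did not follow it. Its range over all 24 libraries was narrow, from 12.7 to 22.2 CPM. Mock libraries held 22.2, 20.3 and 20.5 CPM at day 2 and 17.3, 17.7 and 16.7 CPM at day 7. GMT libraries held 18.2, 17.7 and 18.1 CPM at day 2 and 20.8, 20.1 and 21.2 CPM at day 7. GHMT libraries held 15.7, 14.4 and 13.6 CPM at day 2 and 17.7, 18.9 and 18.3 CPM at day 7. AGHMT libraries were the lowest at day 7, with 14.2, 14.004 and 14.5 CPM, and held 15.9, 15.3 and 12.7 CPM at day 2. From mock day 2 down through GMT day 7, GHMT day 7, GMT day 2, mock day 7, AGHMT day 2, GHMT day 2 and AGHMT day 7, the libraries of ranks 1 and 2, of ranks 3 and 4, and of ranks 6, 7 and 8 overlapped with their neighbours.

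At day 2 Tbx3 was lower than mock by -0.22 ± 0.04 in GMT (adjusted p = 0.00411), -0.53 ± 0.07 in GHMT (1.71e-07) and -0.52 ± 0.11 in AGHMT (1.26e-07). At day 7 the sign depended on the cocktail. GMT was higher by 0.27 ± 0.03 (8.20e-04), AGHMT was lower by -0.28 ± 0.03 (7.86e-04), and GHMT differed by 0.09 ± 0.04 with no call (0.230) although its libraries did not overlap with mock. GHMT was below GMT at day 2 by -0.30 ± 0.06 (6.11e-04). At day 7 it was below GMT by -0.18 ± 0.04 (0.0344), a call lost without GHMT replicate 1 (adjusted p = 0.124) or 3 (0.0772), without GMT replicate 1 (0.0763) or 3 (0.110), and with no filter on low counts (0.0988). AGHMT and GHMT differed by 0.00 ± 0.12 at day 2 (0.968) and by -0.37 ± 0.03 at day 7 (7.08e-05). Tbx3 lies 147943 bases before Tbx5 on chromosome 5, and its antisense gene Tbx3os1 held 0 to 13 reads per library.

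Tbx18 (ENSMUSG00000032419, chr9:87702800-87731260, minus strand), a repressor of the epicardium and sinus horn, was already present in mock and rose moderately. Mock libraries held 19.2, 20.2 and 20.6 CPM at day 2 and 14.4, 14.7 and 14.04 CPM at day 7. GMT libraries held 34.9, 33.6 and 33.6 CPM at day 2 and 42.3, 40.1 and 41.4 CPM at day 7. GHMT libraries held 49.8, 52.7 and 47.9 CPM at day 2 and 48.7, 49.9 and 48.6 CPM at day 7, so that its GHMT level was nearly the same at both days. AGHMT libraries held 38.9, 38.7 and 35.3 CPM at day 2 and 56.7, 57.5 and 55.4 CPM at day 7. The lowest cocktail library was above the highest mock library at either day. Ordered AGHMT day 7, GHMT day 2, GHMT day 7, GMT day 7, AGHMT day 2, GMT day 2, mock day 2 and mock day 7, the groups overlapped only between the 2 GHMT days.

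The Tbx18 differences from mock at day 2 were 0.77 ± 0.04 in GMT (adjusted p = 3.43e-13), 1.33 ± 0.05 in GHMT (3.72e-18) and 0.91 ± 0.05 in AGHMT (7.07e-15). At day 7 they were 1.52 ± 0.03 in GMT (3.69e-19), 1.77 ± 0.02 in GHMT (1.46e-20) and 1.97 ± 0.03 in AGHMT (1.25e-21). GHMT exceeded GMT by 0.56 ± 0.04 at day 2 (1.66e-10) and by 0.25 ± 0.03 at day 7 (6.69e-05). AGHMT was below GHMT by -0.42 ± 0.06 at day 2 (2.91e-08) and above it by 0.20 ± 0.02 at day 7 (4.24e-04). The opposite-strand gene D030062O11Rik, which overlaps the start of Tbx18, held 14 to 45 reads per library, against 443 to 1864 for Tbx18.

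Tbx18 is also a marker gene of the epicardium, so a list of 10 other epicardial and mesothelial markers was set beside it. Their summed level at day 7 was 260.9 to 288.3 CPM in mock, 533.6 to 564.9 in GMT, 728.9 to 786.9 in GHMT and 236.5 to 258.3 in AGHMT. AGHMT, the group with the highest Tbx18, thus had the lowest sum of that day, and in it 3 of the 10 markers were higher than mock, 6 lower and 1 not called. In GMT and in GHMT 4 were higher, 5 lower and 1 not called, with medians of -0.53 and -0.42. Of all genes, 36.3% to 38.6% were higher and 35.6% to 38.1% lower at day 7. Of the day 7 sums, the surface protein genes Msln and Upk1b held 147 ± 11.99 and 279 ± 9.42 CPM in GMT, 571 ± 26.2 and 89.5 ± 3.59 CPM in GHMT, and 65.1 ± 5.76 and 47.4 ± 2.48 CPM in mock. In AGHMT this pair held 122 ± 7.71 and 58.5 ± 2.70 CPM. Wt1 and Upk3b, also on the list, were instead below mock at day 7. Their means were 3.88 and 19.6 CPM in GMT and 4.79 and 24.2 CPM in GHMT. In AGHMT they were 7.03 and 34.4 CPM, and in mock 8.96 and 65.8 CPM. Both pairs were chosen after their values were seen. At day 2 the sums were 57.4 to 62.8 CPM in mock, 109.3 to 113.4 in GMT, 92.8 to 95.9 in GHMT and 52.9 to 63.9 in AGHMT, with none of the 10 at 0. A list of 10 pericyte and smooth muscle markers, cells that also carry Tbx18, summed to 4851 to 5396 CPM in mock at day 7, 3227 to 3493 in GMT, 5633 to 5818 in GHMT and 6141 to 6575 in AGHMT. The day 7 sum was thus below mock in GMT and above it in GHMT and AGHMT. At that day 2 of these markers were higher than mock and 8 lower in GMT, with a median of -0.64. In GHMT and in AGHMT 5 were higher and 3 lower, with medians of 0.09 and 0.17. At day 2 the sum of this list was 6691 to 7285 CPM in mock, 2330 to 2378 in GMT, 5567 to 5683 in GHMT and 3060 to 3432 in AGHMT. The day 2 sum was thus below mock in all 3 cocktails while Tbx18 was above it. Yet in GHMT at day 2 5 of these 10 markers were higher than mock, 2 lower and 3 not called (median 0.36). In GMT 3 were higher and 6 lower, and in AGHMT 4 and 6, with medians of -0.50 and -0.36. Of all genes, 33.9% to 38.0% were higher and 33.1% to 37.4% lower at day 2. The part of either list in the Tbx18 result was not tested.

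Tbx15 (ENSMUSG00000027868, chr3:99240381-99354259, plus strand), a factor of limb and dermal mesenchyme and the nearest relative of Tbx18, was the most abundant of the 7 in mock. Mock libraries held 119, 125 and 127 CPM at day 2 and 194, 187 and 201 CPM at day 7. GMT libraries held 113, 115 and 112 CPM at day 2 and 123, 124 and 118 CPM at day 7. GHMT libraries held 142, 142 and 139 CPM at day 2 and 117, 121 and 113 CPM at day 7. With AGHMT, 116, 116 and 127 CPM were measured at day 2 and 124, 129 and 129 CPM at day 7. At day 7 all mock libraries stood above all cocktail libraries, while at day 2 the mock and AGHMT libraries overlapped. In the order of means, mock day 7 and GHMT day 2 were separate from their neighbours, and the libraries of the other 6 groups overlapped from one to the next, in the order AGHMT day 7, mock day 2, GMT day 7, AGHMT day 2, GHMT day 7 and GMT day 2.

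Tbx15 was lower than mock at day 7 by -0.67 ± 0.04 in GMT (adjusted p = 2.39e-13), -0.73 ± 0.04 in GHMT (5.07e-14) and -0.60 ± 0.04 in AGHMT (1.89e-12). In mock itself Tbx15 rose between the days by 0.65 ± 0.04 (2.16e-12). At day 2 GHMT was higher than mock by 0.19 ± 0.03 (3.81e-04) and AGHMT differed by -0.05 ± 0.05 (0.305). GMT was lower by -0.13 ± 0.03 (0.00916), a call lost with no filter on low counts (adjusted p = 0.199), with library totals in place of TMM (0.0948) and without mock day 2 replicate 3 (0.05, at the threshold). GHMT exceeded GMT at day 2 by 0.32 ± 0.01 (8.59e-07) and differed by -0.06 ± 0.04 at day 7 (0.321). AGHMT was below GHMT at day 2 by -0.23 ± 0.04 (4.53e-05). At day 7 it was above GHMT by 0.13 ± 0.04 (0.0154), which was lost with no filter (0.119) and without AGHMT replicate 2 (0.0514) or 3 (0.0579) or GHMT replicate 3 (0.120).

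The fibroblast marker sum also differed between mock and cocktails. At day 7 the 10 markers summed to 64460 to 70050 CPM in mock against 10790 to 14630 CPM in the cocktails. There 9 of 10 were lower in each cocktail, against 35.6% to 38.1% of all genes. At day 2 the sums were 33710 to 36920 CPM in mock and 20480 to 24460 CPM in the cocktails. Of the 10, 9 were lower and 1 higher in GMT, 7 and 3 in GHMT, and 8 and 2 in AGHMT. Of all genes, 33.1% to 37.4% were lower and 33.9% to 38.0% higher. At day 2 Dcn and Lum, chosen after their values were seen, averaged 264 and 96.6 CPM in GHMT and 350 and 164 in AGHMT. Mock averaged 163 and 54.5 CPM that day, and GMT 69.8 and 16.2 CPM. The part of these shifts in the levels of Tbx15, Tbx4 and Tbx1 was not tested.

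Tbx4 (ENSMUSG00000000094, chr11:85886422-85916097, plus strand), a hindlimb and lung mesenchyme factor, lies 44473 bases after Tbx2 and went the other way. Mock libraries held 14.5, 17.2 and 16.9 CPM at day 2 and 15.9, 14.9 and 13.7 CPM at day 7. GMT libraries held 11.4, 11.1 and 10.4 CPM at day 2 and 5.70, 5.23 and 5.96 CPM at day 7. GHMT libraries held 13.6, 10.8 and 11.5 CPM at day 2 and 5.41, 5.74 and 7.22 CPM at day 7. AGHMT libraries held 10.8, 12.1 and 10.7 CPM at day 2 and 6.04, 5.91 and 5.32 CPM at day 7. The levels formed 3 steps (both mock groups, the day 2 cocktails and the day 7 cocktails), with no overlap between steps and overlapping neighbours within each.

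Tbx4 was lower than mock at day 2 by -0.56 ± 0.09 in GMT (adjusted p = 7.91e-06), -0.44 ± 0.13 in GHMT (1.80e-04) and -0.54 ± 0.10 in AGHMT (1.13e-05). At day 7 the differences were -1.40 ± 0.08 (5.11e-12), -1.29 ± 0.14 (2.46e-11) and -1.37 ± 0.08 (8.94e-12). Between cocktails none of 4 comparisons was called. GHMT against GMT gave 0.12 ± 0.11 at day 2 (0.336) and 0.11 ± 0.14 at day 7 (0.482), and AGHMT against GHMT gave -0.10 ± 0.11 (0.409) and -0.08 ± 0.14 (0.593).

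Tbx1 (ENSMUSG00000009097, chr16:18580979-18590671, minus strand), the factor of pharyngeal and outflow tract mesoderm, was the lowest in mock after Tbx20, with 23 to 98 reads per library over the 24. Mock libraries held 2.01, 2.65 and 2.39 CPM at day 2 and 2.45, 2.56 and 2.50 CPM at day 7. GMT libraries held 1.73, 1.47 and 1.13 CPM at day 2 and 0.949, 1.06 and 0.860 CPM at day 7. GHMT libraries held 1.26, 1.99 and 1.43 CPM at day 2 and 1.18, 1.495 and 1.21 CPM at day 7. AGHMT libraries held 1.39, 1.18 and 1.30 CPM at day 2 and 0.724, 0.979 and 0.922 CPM at day 7. All cocktail libraries lay below all mock libraries. Below the 2 mock groups, the libraries of GHMT day 2, GMT day 2, GHMT day 7 and AGHMT day 2 overlapped in turn, and those of GMT day 7 and AGHMT day 7 overlapped beneath them.

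Tbx1 was lower than mock at day 2 by -0.70 ± 0.21 in GMT (adjusted p = 4.69e-04), -0.60 ± 0.22 in GHMT (0.00248) and -0.86 ± 0.13 in AGHMT (5.26e-05). The day 7 differences were -1.39 ± 0.08 in GMT (1.07e-07), -0.95 ± 0.11 in GHMT (1.64e-05) and -1.52 ± 0.13 in AGHMT (4.49e-08). At the few reads of Tbx1 these SEs may be too small. GHMT and GMT differed by 0.10 ± 0.26 at day 2 (0.681) and by 0.45 ± 0.13 at day 7 with no call (0.0763), although the day 7 libraries did not overlap. AGHMT and GHMT differed by -0.27 ± 0.20 at day 2 (0.236). At day 7 AGHMT was lower by -0.57 ± 0.16 (0.0223), a call lost without AGHMT replicate 1 (-0.45, adjusted p = 0.108) and without GHMT replicate 2 (-0.45, adjusted p = 0.118).

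**Figure D3:**
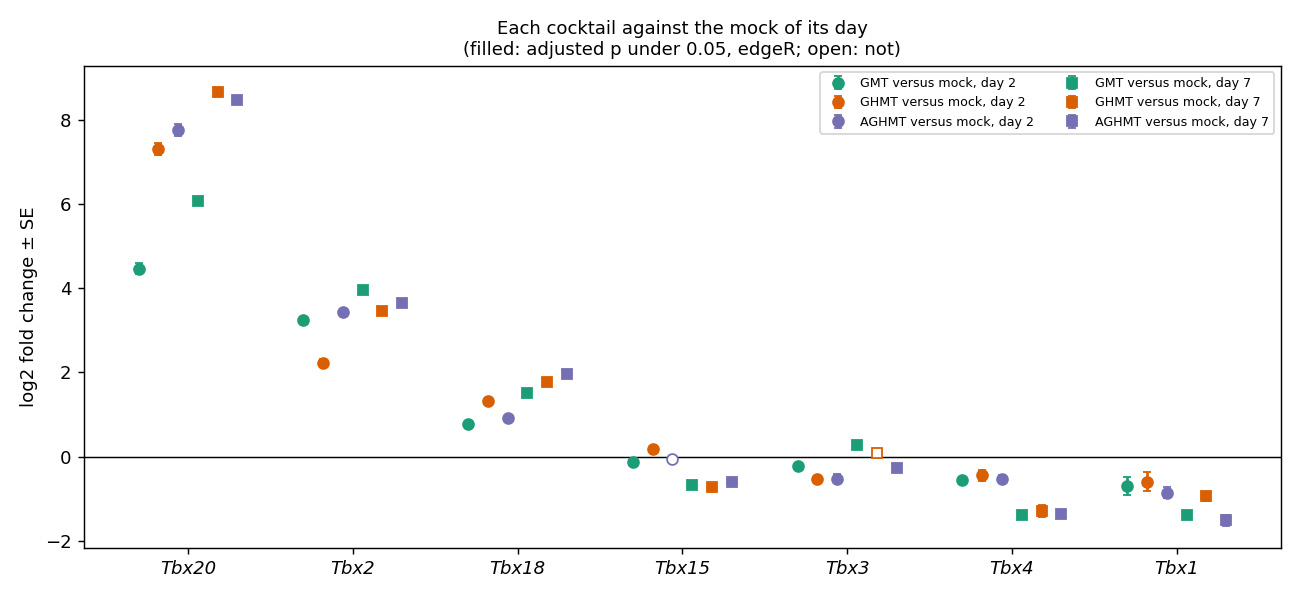
Log2 fold change ± SE of each gene in the 3 cocktails against the mock of the same day (circles day 2, squares day 7, filled where the edgeR adjusted p is under 0.05). Values run from 8.67 for Tbx20 in GHMT at day 7 to -1.52 for Tbx1 in AGHMT at day 7, and the cocktails of a day share the mock libraries.

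Without the 3 libraries furthest from their groups (AGHMT day 2 replicates 2 and 3 and GHMT day 2 replicate 3), which leaves 1 AGHMT day 2 library assumed to vary like the other groups, all calls of the 7 genes against mock and between cocktails were kept. At day 2 Tbx20 in AGHMT against mock was then 7.80, Tbx2 3.49, Tbx18 0.96 and Tbx3 -0.40.

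Between cocktails, GHMT against GMT at day 2 had 3 of the 7 genes higher, 2 lower and 2 not called, against 23.1% of all genes higher and 21.7% lower (44.8% in all). At day 7 that comparison had 2, 2 and 3, against 18.7% and 18.8% (37.5%). AGHMT against GHMT had 2 higher, 2 lower and 3 not called at day 2, against 25.7% and 27.0% (52.7%). At day 7 it had 3, 3 and 1, against 25.0% and 23.6% (48.7%). The median of the 7 was 0.12, 0.11, -0.10 and -0.08 in that order, and that of all genes lay between -0.02 and -0.00. The same GHMT libraries enter both comparisons of a day.

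**Figure D4:**
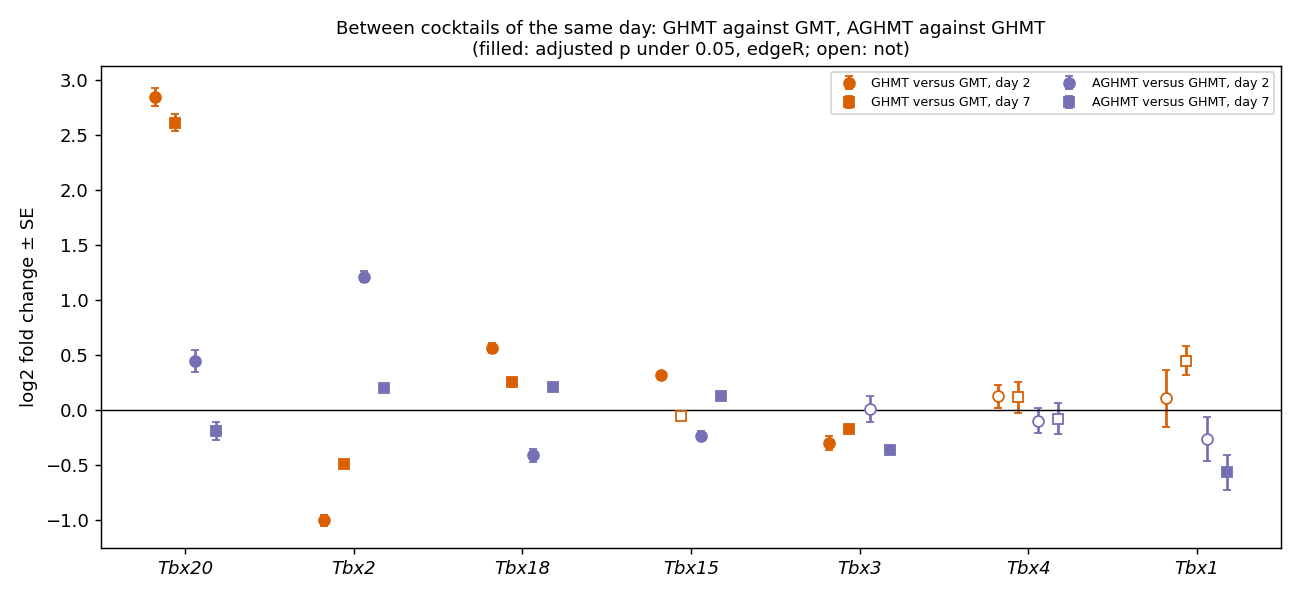
Log2 fold change ± SE of each gene between cocktails of the same day (GHMT against GMT in orange, AGHMT against GHMT in purple, circles day 2, squares day 7, filled where the edgeR adjusted p is under 0.05). Tbx20 stands at 2.84 and 2.61 for GHMT against GMT while Tbx2 stands at -1.01 and -0.49, and no point of Tbx4 is filled.

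Levels of different genes were compared per length, as RPKM, which is CPM divided by the annotated exonic length in kilobases. The 7 genes together held 48.0 ± 1.602 RPKM in mock at day 2 and 64.0 ± 1.52 at day 7. The day 2 cocktails held 64.8 ± 0.870 (GMT), 71.3 ± 1.83 (GHMT) and 78.3 ± 0.420 (AGHMT) RPKM, and those of day 7 held 73.1 ± 0.159, 85.1 ± 1.56 and 88.4 ± 0.905 RPKM. Tbx15 made up 68.8% ± 0.489 of it in mock at day 2 and 80.8% ± 1.14 at day 7, but 44.4% ± 1.26 in GMT, 36.7% ± 1.68 in GHMT and 38.6% ± 0.526 in AGHMT at day 7. Tbx2 went from 2.34% ± 0.184 in day 7 mock to 31.8% ± 1.17 in GMT, 19.4% ± 0.349 in GHMT and 21.4% ± 0.909 in AGHMT. Tbx20 went from 0.0846% ± 0.00416 to 4.96% ± 0.0683, 25.9% ± 1.93 and 21.9% ± 0.713 in the same order. In GHMT at day 7 Tbx20, at 22.1 ± 2.01 RPKM, was thus above Tbx2, at 16.5 ± 0.462, whereas in GMT it was below, at 3.63 ± 0.0496 against 23.2 ± 0.889. Tbx5 itself stood at 370.1 ± 5.53 to 587 ± 13.3 RPKM in the day 7 cocktails.

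**Figure D5:**
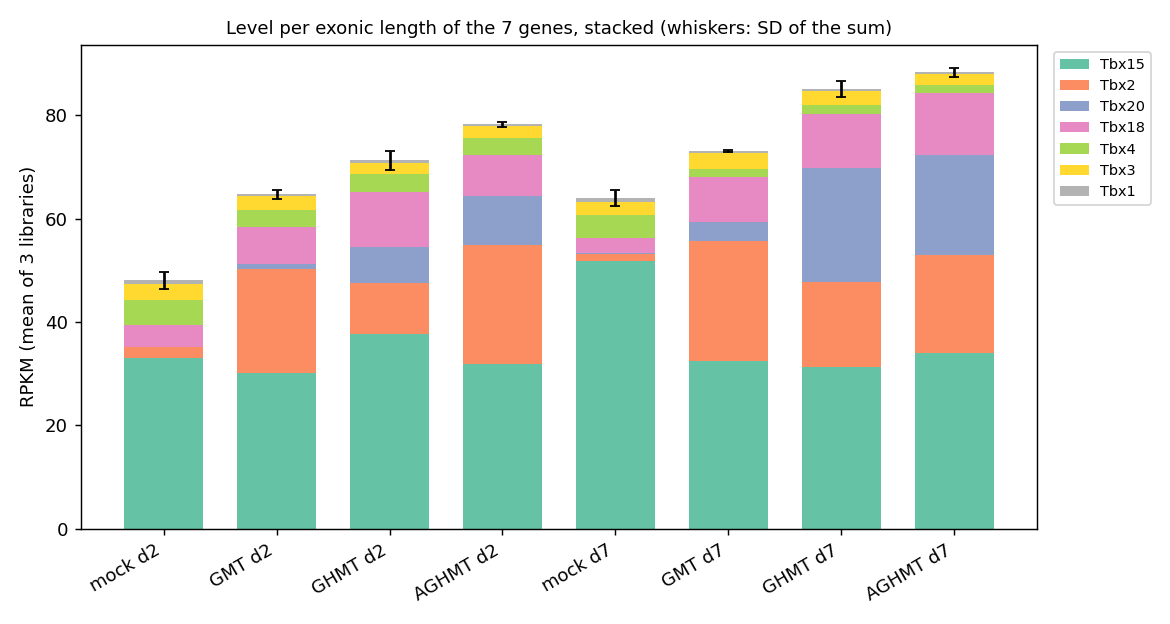
Stacked bars of the mean level per exonic length (RPKM) of the 7 genes in each group, with whiskers for the SD of the sum over 3 libraries. The sum is highest in AGHMT at day 7 (88.4 RPKM), Tbx15 fills most of both mock bars, and Tbx2 and Tbx20 fill much of the day 7 cocktail bars.

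Over the 24 libraries, Tbx20 and Tbx18 were the pair most alike (Pearson r of log2 CPM 0.946), followed by Tbx2 with Tbx20 (0.864), Tbx2 with Tbx18 (0.862) and Tbx4 with Tbx1 (0.816). These r values describe 8 groups of libraries that share treatment and depth, and no test was made. Among 11564 other genes with at least 5 CPM in their highest group, the profile most like that of Tbx20 was that of Tnnc1, the cardiac and slow-muscle troponin C (0.995), then Bag3, a chaperone partner in muscle (0.993), and Msi2 (0.990). For Tbx18 the first was Jph2, the junctophilin of muscle membrane junctions (0.993), then Nexn, an actin-binding sarcomere protein (0.983), and Dnajb4 (0.981). For Tbx2 the nearest were Ephx4 (0.983), Wnk4 (0.982 at rank 2) and Acaa2, an enzyme of fatty acid oxidation (0.978). Tbx4 was most like Sept6 (0.978), Tbx1 like Rarg, a retinoic acid receptor (0.928), Tbx15 like Ifngr1 (0.928) and Tbx3 like Hsp90ab1, a chaperone (0.920). Over the 8 group means the first gene stayed first for Tbx20, Tbx18, Tbx2 and Tbx3 and changed for Tbx4, Tbx1 and Tbx15.

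Of the 10 other T-box genes in the table, 4 were tested, namely Tbx5, Tbx6, Eomes and Mga. Eomes, a factor of early mesoderm and of lymphocytes, stood at 0.353 ± 0.0249 CPM in mock at day 2 and 0.347 ± 0.105 at day 7. It was higher in GMT at both days, with 3.23 ± 0.471 CPM at day 2 (log2 3.18 ± 0.13, adjusted p = 2.41e-13) and 5.31 ± 0.285 CPM at day 7 (3.93 ± 0.23, 8.07e-16). In GHMT it stood at 0.542 ± 0.0486 CPM at day 2 and 1.32 ± 0.354 CPM at day 7, lower than GMT by -2.57 ± 0.14 (1.86e-11) and -1.99 ± 0.23 (1.61e-11). Its order of GMT over GHMT was that of Tbx2, with the opposite order in Tbx20. In AGHMT Eomes did not follow Tbx2. At day 2 it held 0.240 ± 0.0616 CPM there, lower than GHMT by -1.18 ± 0.19 (0.00311). That call rests on 6 to 9 reads per AGHMT library against 15 to 18 in GHMT. At day 7 AGHMT held 1.11 ± 0.0606 CPM of Eomes, a difference of -0.27 ± 0.23 from GHMT with no call (0.238). Mga, a T-box and MAX-binding repressor, was lower than mock in AGHMT at day 7, at 96.6 ± 3.83 against 156 ± 8.03 CPM (-0.69 ± 0.05, 2.93e-06). Mga was also called lower than mock at day 7 in GMT (131 ± 2.52 CPM) and in GHMT (116 ± 14.1 CPM). Tbx6 was not called in any of the day 7 comparisons with mock. At day 2 Tbx6 was called lower in AGHMT than in GHMT, at 0.280 ± 0.131 against 0.619 ± 0.0199 CPM. These AGHMT libraries held 4 to 13 reads of it, and mock stood at 0.564 ± 0.191 CPM.

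Among 18 genes known to lie under T-box control, 17 were tested, and most were higher in the cocktails. At day 7 12 were higher and 3 lower in GMT, 12 and 5 in GHMT, and 11 and 5 in AGHMT. Of all genes, 36.3% to 38.6% were higher and 35.6% to 38.1% lower. The medians of the list were 2.30, 2.17 and 1.62, against medians of all genes between -0.00 and 0.01. At day 2 12 were higher and 2 lower in GMT, 13 and 3 in GHMT, and 13 and 3 in AGHMT. There 33.9% to 38.0% of all genes were higher and 33.1% to 37.4% lower. Nppa, the atrial natriuretic peptide gene activated by Tbx5 and repressed by Tbx2 and Tbx3, was highest in GMT at day 7, at 590 ± 39.6 CPM, against 461 ± 37.1 in GHMT, 124 ± 9.38 in AGHMT and 0.362 ± 0.183 in mock. Gja5, a fast-conducting gap junction gene, was highest in GHMT, at 118 ± 3.97 CPM, against 39.1 ± 3.34 in GMT and 53.8 ± 1.17 in AGHMT. Hcn4, the pacemaker channel, was highest within day 7 in AGHMT, at 779.7 ± 9.34 CPM, against 414 ± 54.7 in GHMT and 10.5 ± 0.522 in GMT. The AGHMT libraries of day 2 held 885 ± 221 CPM of Hcn4. Ryr2, the calcium release channel, reached 1024 ± 22.2 CPM in AGHMT at day 7. Fgf10 and Cdkn2a of the list, chosen after their values were seen, lay below mock in AGHMT at day 7. Fgf10 stood at 11.5 ± 0.328 against 45.8 ± 1.19 CPM and Cdkn2a at 30.6 ± 2.04 against 86.7 ± 4.22 CPM. Nppa and Ryr2 are also among 8 cardiac muscle markers, all called higher in each of the 6 cocktail groups, whose sum rose from 20.2 to 23.8 CPM in mock to 17920 to 18560 CPM in AGHMT at day 7. The part of this shift in the result for Tbx20 was not tested.

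Of 17 T-box partners and corepressors, 15 were tested. In AGHMT at day 7 4 were higher, 5 lower and 6 not called, with a median of -0.10, so that 60% were called against 76.8% of all genes. In the other 5 comparisons with mock 86.7% to 93.3% of the list was called, against 67.1% to 75.4% of all genes. There 6 to 8 genes of the list were higher and 5 to 8 lower. The genes named next are given for AGHMT against mock at day 7. Casz1, a zinc finger partner of Tbx5 and Tbx20 in the heart, held 54.1 ± 0.757 against 0.527 ± 0.0971 CPM (log2 6.67, adjusted p = 1.67e-23). Smarcd3, a chromatin remodelling subunit of heart muscle, was higher by 1.65 (8.63e-20). Tle2, a Groucho corepressor, was lower by 1.84 (8.81e-16) and the LIM protein gene Lmo4 was lower by 1.46 (6.07e-19). The other Groucho genes of the list, added after their values were seen, differed in direction. Tle1 averaged 20.3 CPM against 38.2 in mock, and Tle4 averaged 20.2 against 10.5. Tle3 averaged 118 against 111 CPM with overlapping libraries, but 183 in GMT and 190 in GHMT at day 7. Nkx2-5, the homeodomain partner, did not pass the filter on low counts.

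BMP signalling induces Tbx2, Tbx3 and Tbx20 in the embryo, and all 21 genes of that list were tested. At day 7 7 were higher and 12 lower in GMT, 9 and 12 in GHMT, and 7 and 13 in AGHMT, with medians of -0.71, -0.53 and -0.56, where 36.3% to 38.6% of all genes were higher and 35.6% to 38.1% lower. At day 2 10 were higher and 10 lower in GMT, 11 and 9 in GHMT, and 10 and 11 in AGHMT, with medians of 0.03, 0.39 and -0.39. That day 33.9% to 38.0% of all genes were higher and 33.1% to 37.4% lower. In AGHMT at day 7 Bambi, a decoy receptor, was higher than mock by 3.11 (adjusted p = 1.09e-22). The BMP response genes Id4 and Id2 were lower than mock by 2.87 (1.66e-20) and 1.89 (3.15e-17), and the antagonist Nog by 2.59 (3.16e-16). From day 2 to day 7 mock itself rose from 8.20 to 38.1 CPM in Id4, 21.4 to 60.8 in Id2 and 1.24 to 7.91 in Nog. AGHMT went from 3.86 to 5.20 CPM in Id4, 32.9 to 16.4 in Id2 and 0.664 to 1.31 in Nog. In GMT Nog was above mock at both days, at 5.35 and 10.7 CPM. At day 2 Id2 was instead higher than mock in all 3 cocktails, at 39.7 ± 1.67 CPM in GMT, 46.3 ± 0.770 in GHMT and 32.9 ± 3.81 in AGHMT against 21.4 ± 1.69 CPM (adjusted p from 1.43e-12 to 6.68e-08). In mock between the days 13 of the 21 were higher and 4 lower, against 29.7% and 25.8% of all genes.

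The mock groups themselves moved between days, where 29.7% of all genes were higher and 25.8% lower (55.5% in all), and of the 7 genes 1 was higher, 3 lower and 3 not called. Besides the rise of Tbx15, Tbx2 was lower at day 7 by -0.50 ± 0.08 (adjusted p = 2.81e-06), Tbx18 by -0.48 ± 0.04 (2.50e-08) and Tbx3 by -0.29 ± 0.05 (6.31e-04). Tbx20 differed by 0.30 ± 0.13 (0.353), Tbx4 by -0.13 ± 0.10 (0.238) and Tbx1 by 0.09 ± 0.12 (0.643), none called. A difference between days in the effect of a cocktail therefore also holds the change of its mock. For GMT that difference was higher in 4 and lower in 3 of the 7 genes, against 24.3% and 25.3% of all genes (49.5% in all). For GHMT it was higher in 4, lower in 2 and not called in 1, against 23.3% and 26.0% (49.3%). For AGHMT it was higher in 4 and lower in 3, against 24.8% and 26.1% (50.9%). For AGHMT only 3 of the 7 calls (Tbx4, Tbx15 and Tbx18) were left without the 3 libraries furthest from their groups.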

How the data were processed

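Total RNA from MEFs was sequenced in 24 libraries, 3 in each of 8 groups taken from the labels. Per the submitters' processing notes the tools were HISAT2 2.0.1, featureCounts 1.4.6, Trim Galore 0.4.1 and DESeq2 1.6.3 on the build GRCm38 (mm10), with no role or order given. Strand setting and read length were not given in the sources used here. For overlapping genes, reads therefore cannot be told apart. The deposited table of the authors holds raw counts of reads for 47967 genes. The deposited log2 table equals log2 CPM of these counts within 0.00603, with values under 1 CPM set to 0, and served only for that check. Every pair of replicates differed by more than sampling noise (lowest chi-square per degree of freedom 1.49).

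Counts were tested with edgeR 4.0.16 in R 4.3.3 (TMM scaling, filterByExpr, quasi-likelihood F test, 1 mean per group over all 24 libraries, 16 residual degrees of freedom, two-sided, Benjamini-Hochberg over 17576 genes, threshold 0.05) in 14 comparisons. Tested genes held 99.9% of counts in the lowest library. SEs come from the spread of log2 CPM (prior count 2) of the libraries compared. Coordinates and exonic lengths are from GENCODE M21 and promoters from RefSeq. The 7 genes, the gene lists, the up to 4 genes named per list (smallest adjusted p in AGHMT against mock at day 7) and the rule for like profiles (highest Pearson r over the libraries) were chosen with earlier results of these data known. Genes said to be chosen after their values were seen were named besides these. The code was tested on simulated data. Alternatives were DESeq2 1.42.0, RLE factors, no filter, only the groups compared, the replicate number as a block and each library left out. After seeing the data, 2 more were added: library totals without TMM, and a fit that drops the 3 libraries with the largest distance to their own group.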

Additional observations from a re-analysis of the deposited data

Results flagged for a closer look

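The difference between day 7 and day 2 in the effect of a cocktail against its own mock, tested as an interaction term with edgeR, passed an adjusted p of 0.05 in 20 of 21 cases. Values are differences of log2 fold changes, and a positive value means a higher fold change at day 7. Since 49.3% to 50.9% of all genes passed in these comparisons, and since Tbx2, Tbx3, Tbx18 and Tbx15 also moved in mock between days, each is given as a value only.

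For the genes that rose, Tbx20 differed by 1.602 in GMT (adjusted p = 5.16e-05), 1.37 in GHMT (2.78e-04) and 0.73 in AGHMT (0.0326). Tbx2 differed by 0.71 in GMT (2.12e-07), 1.22 in GHMT (2.19e-11) and 0.21 in AGHMT (0.0486), and in AGHMT its level was lower at day 7 than at day 2, with a larger fall in mock. Tbx18 differed by 0.75 in GMT (1.65e-09), 0.44 in GHMT (6.76e-06) and 1.06 in AGHMT (2.24e-12). Tbx3 is not one of the genes that rose, being lower than mock in all 3 cocktails at day 2. Its differences were 0.49 in GMT (9.22e-05), 0.61 in GHMT (6.26e-06) and 0.25 in AGHMT (0.0343). In AGHMT its level was 14.6 CPM at day 2 and 14.2 at day 7, while mock went from 21.0 to 17.2 CPM.

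For the genes that fell, Tbx4 differed by -0.84 in GMT (1.68e-05), -0.84 in GHMT (1.49e-05) and -0.83 in AGHMT (2.07e-05). Tbx15 differed by -0.54 in GMT (3.44e-08), -0.92 in GHMT (3.10e-12) and -0.56 in AGHMT (2.17e-08), while it rose in mock. Tbx1 differed by -0.69 in GMT (0.0191) and -0.65 in AGHMT (0.0334), and its value of -0.35 in GHMT was not called (0.234). The GMT call of Tbx1 was lost without GMT day 2 replicate 1 (-0.54, adjusted p = 0.0896), GMT day 7 replicate 3 (-0.62, 0.0564) or mock day 2 replicate 1 (-0.59, 0.0508). In AGHMT 4 calls were lost without single libraries, with the highest adjusted p for Tbx2 at 0.227 (without mock day 2 replicate 2), for Tbx3 at 0.137 (without AGHMT day 2 replicate 3), for Tbx20 at 0.108 (without mock day 2 replicate 1) and for Tbx1 at 0.106 (without AGHMT day 7 replicate 1).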

How the results depend on the processing

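The number of all genes called stayed within 1.5 times that of the report in all 14 comparisons under every alternative run, with the lowest ratio at 0.75 and the highest at 1.17. Of the 98 results of a gene in a comparison, RLE factors changed no call, DESeq2 ended 2, restricting the fit to the groups compared ended 2, no filter ended 5, library totals ended 1 and made 1 (Tbx4 in mock, -0.23, adjusted p = 0.0281), and the 3 furthest libraries left out ended 4. The count of the 7 genes called moved beyond 1.5 times only for the day difference of AGHMT. It was 7, fell to 3 without the 3 furthest libraries, and ran from 4 to 6 when 1 library was left out, with the lowest count without AGHMT day 2 replicate 3, AGHMT day 7 replicate 1, or replicate 1 of mock day 2, or replicate 1 or 2 of mock day 7. The calls lost were those of Tbx1, Tbx2, Tbx3 and Tbx20. The cause was not tested.

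Signs turned only in differences that were not called. With library totals Tbx1 was -0.0139 in GHMT against GMT at day 2 and -0.0142 in mock between days. When 1 library was left out, Tbx1 in GHMT against GMT at day 2 ran from -0.11 to 0.26 (negative without GHMT replicate 2 or GMT replicate 3, -0.0406), and Tbx1 in mock from -0.0107 (without day 2 replicate 1) to 0.188. Tbx3 in AGHMT against GHMT at day 2 ran from -0.06 to 0.10 (negative without AGHMT replicate 1 or 2, -0.03, or GHMT replicate 2 or 3, -0.00575 and -0.0418). Tbx4 in AGHMT against GHMT ran from -0.17 to 0.00108 at day 2 (positive without GHMT replicate 1) and from -0.16 to 0.0354 at day 7, and in GHMT against GMT at day 7 from -0.0133 to 0.19, both turned without GHMT replicate 3. The cause was not tested.

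Replicate numbers did not pair the libraries, since correlations of same-numbered deviations ran from -0.0417 to 0.274 over 11 comparisons and in none did all 6 libraries correlate best with their own number. A fit with the replicate number as a replicate block changed 1 of the 98 results, the AGHMT day difference of Tbx2 (0.21, adjusted p = 0.0519), and the count of calls there became 6. With library totals in place of TMM the median log2 value of all genes was -0.117 in GHMT against GMT at day 2 (-0.000365 with TMM) and 0.0852 in the GHMT day difference (-0.015 with TMM), and it moved by less than 0.1 in the other comparisons. Depth limits Tbx1 (23 to 98 reads) and Tbx20 in mock (16 to 22 reads).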
